A study of Mus musculus with 6 samples.

Results

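Cathepsins are the proteases of the lysosome, and legumain (Lgmn) is the asparaginyl endopeptidase that works beside them. The 10 genes described here were the cathepsin genes Ctsa, Ctsb, Ctsc, Ctsd, Ctsh, Ctsl, Ctss and Ctsz, together with Lgmn and Gpnmb, which encodes a membrane glycoprotein of lysosomes, phagosomes and melanosomes. They were chosen by gene symbol, with earlier results of these data known. Each was read by 1 transcript cluster (the set of exon probes that the array assigns to a locus), out of 14860 symbols and 23332 clusters on the array. Expression was measured on 6 Affymetrix exon arrays of total RNA from 3 immortalized mouse keratinocyte lines, with 2 arrays a line. The wild-type line (MK116) came from wild-type newborn mice. The α3-null line (MK546) came from newborn mice without the integrin α3 subunit. The rescue line was the MK546 null line carrying a stably transfected human α3, so it also lacks mouse α3. SV40 large T antigen had immortalized the wild-type and null lines, and the rescue line inherits it. All were kept on collagen-coated plates in a low-calcium medium with EGF, insulin, hydrocortisone and interferon-γ. Each condition is thus a single line, the labels do not say whether the rescue line is a clone or a pool, and any difference between wild type and null holds every other difference between those lines.

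Most cathepsins are made as inactive precursors, carried to the lysosome by mannose 6-phosphate receptors, and activated there in the acid that the vacuolar ATPase makes. Ctsb, Ctsc, Ctsh, Ctsl, Ctss and Ctsz are papain-like cysteine proteases, Ctsd is an aspartic protease and Ctsa a serine carboxypeptidase. Cystatins inhibit the cysteine group, and legumain processes several single-chain cathepsins. In skin, mouse Ctsl is needed for normal hair cycling and epidermal thickness, and secreted cathepsins can cleave matrix proteins. MITF, TFEB and TFE3, the MiT/TFE transcription factors, bind CACGTG-type elements near many lysosomal genes, and Gpnmb is among their targets in melanocytes and macrophages.

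Values are PLIER intensities on a linear scale, which summarise all probes of a cluster, and they do not measure the abundance of one gene against another. Dim, percentile and summed intensity below refer to array signal only. A difference is in log2(intensity + 16), which understates the change of dim genes, and a cluster was called at a limma adjusted p under 0.05 over all 23332 clusters. The median intensity of an array was 96.6 to 108, and the 2 arrays of a line correlated at 0.9896 to 0.9908 on the log2 scale, against 0.9664 to 0.977 between lines. Itga3, the targeted gene, read 6364 and 6287 in wild type, 997 and 907 in null and 1218 and 1221 in rescue; how far the mouse probes read the human construct was not tested. All 13 measured keratinocyte markers reached 100 on at least 1 array, with a summed intensity of 55706 to 66479 per array. Of these 13, 5 were called higher and 0 lower in null minus wild type, against 8.49% and 6.84% of all clusters. In rescue minus null 7 were called lower and 0 higher, against 5.62% and 9.75%, with a list median of -0.39. In rescue minus wild type 1 was called lower. Of clusters above the median cluster, 26.9%, 26.6% and 25.3% were called in either direction. The 2 arrays of a line measure only the spread between these arrays, which may be technical. In bulk RNA, fewer cells that express a gene and less RNA per cell cannot be told apart.

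Promoter sequence is shown for 5 of the genes: Ctsz, Gpnmb and Ctsa, which had the largest differences, Ctsd, which holds the same element as Ctsa, and Ctss, a gene that interferon-γ induces. Each is the 250 bases before an annotated start in RefSeq (GRCm38.p6), 5′ to 3′ on the gene's strand. Capitals mark matches to 6 motifs, each searched on both strands. They are the E-box with the letters CACGTG, which the MiT/TFE factors bind, and its melanocyte variant TCATGTG. The GC box is written as GGGCGG and binds SP factors. The TATA box was searched as TATAAA in either orientation. For interferon signalling, the STAT-type element was searched as TTCNNNGAA, and the core of the interferon-stimulated response element (ISRE) was searched beside it. The windows are chr2:174439040-174439289 (minus strand) for Ctsz, chr6:49036268-49036517 (plus) for Gpnmb, chr2:164833523-164833772 (plus) for Ctsa, chr7:142387828-142388077 (minus) for Ctsd and chr3:95526536-95526785 (plus) for Ctss.
Ctsz: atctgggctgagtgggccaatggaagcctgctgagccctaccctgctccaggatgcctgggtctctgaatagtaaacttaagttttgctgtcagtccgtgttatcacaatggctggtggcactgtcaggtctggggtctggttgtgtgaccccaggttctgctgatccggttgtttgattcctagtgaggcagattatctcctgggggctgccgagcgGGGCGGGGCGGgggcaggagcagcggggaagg
Gpnmb: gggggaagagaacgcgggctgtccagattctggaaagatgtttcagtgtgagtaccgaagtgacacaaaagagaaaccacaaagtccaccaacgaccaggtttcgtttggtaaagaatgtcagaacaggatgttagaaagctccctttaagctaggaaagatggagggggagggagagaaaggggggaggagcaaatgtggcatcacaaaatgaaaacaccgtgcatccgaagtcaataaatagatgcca
Ctsa: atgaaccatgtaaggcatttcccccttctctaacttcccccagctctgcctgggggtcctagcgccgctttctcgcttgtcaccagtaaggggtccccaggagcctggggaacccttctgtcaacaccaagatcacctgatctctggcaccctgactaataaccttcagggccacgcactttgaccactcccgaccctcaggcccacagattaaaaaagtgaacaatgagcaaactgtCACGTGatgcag
Ctsd: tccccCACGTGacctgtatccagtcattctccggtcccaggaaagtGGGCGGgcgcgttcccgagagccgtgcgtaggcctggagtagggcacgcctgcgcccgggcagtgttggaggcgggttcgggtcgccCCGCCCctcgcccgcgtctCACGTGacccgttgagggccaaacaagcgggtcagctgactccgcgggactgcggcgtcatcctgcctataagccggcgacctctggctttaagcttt
Ctss: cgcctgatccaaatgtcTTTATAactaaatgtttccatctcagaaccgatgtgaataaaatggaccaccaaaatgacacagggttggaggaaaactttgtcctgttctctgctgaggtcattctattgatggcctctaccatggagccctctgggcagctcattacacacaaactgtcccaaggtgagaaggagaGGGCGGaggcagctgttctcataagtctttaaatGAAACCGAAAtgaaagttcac

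Ctsa has another annotated start, upstream of the one printed, whose window (chr2:164832622-164832871, plus strand) held none of the searched letters. The printed window was the one that held a match. The Ctsa window printed here carried the 8-letter palindrome TCACGTGA 13 bases before the start, and the Ctsd window carried it 99 bases before the start. This palindrome, which contains CACGTG, was present in 0.785% of the 32851 promoters of the same length, and CACGTG alone in 6.02%. CACGTG was also found at -236 of Ctsl and at -49 of 1 of the annotated starts of Lgmn. Ctsz held overlapping GGGCGG boxes at -32 and -27, a motif that 32.7% of promoters had on either strand. The GC box was also found in Ctsc, Ctsd, Ctss and 1 of the annotated starts of Lgmn. Ctss held the ISRE core at -21, the run in capitals nearest its start, which 2.98% of promoters had. TATAAA, found in Ctss and Lgmn, occurred in 12.4% of promoters, TTCNNNGAA, found in Ctsc, in 7.02%, and TCATGTG, found in none of these genes, in 3.25%. The Gpnmb window held none of the searched letters, which says nothing about sites elsewhere. Promoters of 8 of the 10 genes were in the table, and Ctsb and Ctsh were not matched. A match is a run of letters and not a measured binding site.

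Of the 10 genes, 7 were called in at least 1 comparison and 4 of them differed between some pair of lines by 1 or more on the log2 scale. Ctsz was high in the wild-type line alone, Gpnmb in the null line alone, Ctsa was lowest in the rescue line, and Ctsh was lowest in the null line and highest in the rescue line. Ctsl, Lgmn and Ctss had smaller differences that were called in 1 or 2 comparisons, and Ctsb, Ctsc and Ctsd were called in none.

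**Figure D1:**
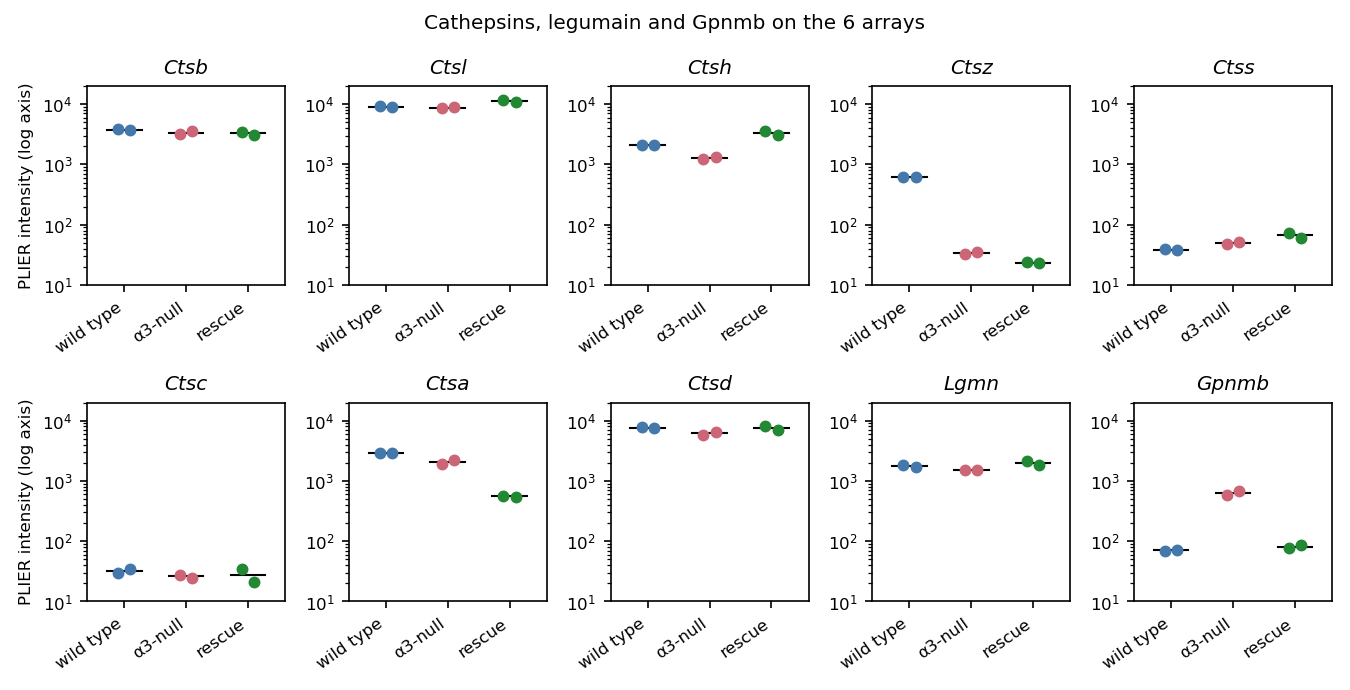
PLIER intensity (log axis) of the 10 genes on each array, with 2 points for each of the wild-type, α3-null and rescue lines and a bar at the line mean. Ctsz is at 616 and 628 in the wild-type line and below 36 elsewhere, Gpnmb is at 575 and 677 on the null arrays and below 86 elsewhere, and Ctsa is near 550 in the rescue line.

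Among the cysteine cathepsins, Ctsz encodes cathepsin Z (also called X), a carboxypeptidase whose propeptide holds an integrin-binding RGD motif. Its intensity was 628 and 616 in wild type, 33.1 and 35.5 in null, and 24.4 and 22.8 in rescue. The wild-type arrays stood apart from the other 4, and the null line read 5.51% and the rescue line 3.79% of the wild-type mean. No detection call is given, so whether the null and rescue readings were above background is not known. Null minus wild type was -3.67 ± 0.10 (log2 difference ± SE; limma adjusted p = 1.54e-05). Against wild type the rescue line differed by -4.01 ± 0.10 (limma adjusted p = 8.69e-06). Rescue minus null was -0.35 ± 0.10, which missed the threshold (limma adjusted p = 0.0650, 95% interval -0.58 to -0.11). The arrays of these lines did not overlap, which held for 55.6% of all clusters. That small difference passed with a pseudocount of 1 (limma adjusted p = 0.0411), after quantile normalization (0.0442) and after median centring (0.0257). The summed intensity of 14 fibroblast markers was also highest in wild type, at 3800 to 4274. It was 1214 to 1222 in null and 1029 to 1096 in rescue. In null minus wild type 3 of 14 were lower (Vim, Pdpn and Fn1) and 0 higher, against 6.84% of all clusters lower. The other 11 were not called, and the list median was -0.08. The part of these markers in the Ctsz difference was not tested.

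Ctsh encodes cathepsin H, which acts mainly as an aminopeptidase. Wild type read 2086 and 2132, null 1231 and 1309, and rescue 3648 and 3054. None of the 3 lines overlapped another, and the order was null, wild type, rescue. The null line was lower than wild type by a log2 difference of -0.72 ± 0.10 (limma adjusted p = 0.00619), and the rescue line was higher than the null line by 1.38 ± 0.10 (limma adjusted p = 9.29e-04). The rescue line was also above wild type, by 0.66 ± 0.10 (limma adjusted p = 0.00924). The first and the third of these calls ended when either wild-type array was left out (limma adjusted p of 0.0518 and 0.0543, and of 0.0645 and 0.0664), while the differences stayed between -0.77 and -0.68 and between 0.53 and 0.79.

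Ctsl encodes cathepsin L, an endopeptidase of epidermis and hair follicle. The wild-type arrays gave 9189 and 9062, the null arrays 8497 and 9085, and the rescue arrays 11509 and 10717. The rescue arrays were above all others, while a null array lay inside the wild-type range. Rescue minus null was 0.34 ± 0.07 (log2; limma adjusted p = 0.0279) and rescue minus wild type 0.28 ± 0.07 (limma adjusted p = 0.0475). Null minus wild type was -0.05 ± 0.07 (95% interval -0.23 to 0.12, limma adjusted p = 0.701). Median centring, which lowers every rescue minus null difference by 0.12, ended both rescue calls (limma adjusted p of 0.0840 and 0.0672), as did several other settings, and with an array left out the first held in 1 and the second in 0 of 6 fits.

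Ctss encodes cathepsin S, which degrades the invariant chain in antigen-presenting cells. It was dim, reading 39.1 and 37.4 in wild type, 48.1 and 51.2 in null, and 73.5 and 60.7 in rescue. The lines did not overlap, but only rescue against wild type was called, with a log2 difference of 0.61 ± 0.13 (limma adjusted p = 0.0286). The call held in 1 of 6 fits that left out an array, with limma adjusted p up to 0.135. Null against wild type gave 0.28 ± 0.13 (limma adjusted p = 0.236). The MHC class II genes moved otherwise. Of 5 measured, 4 fell in the null line: Cd74, H2-Aa, H2-Ab1 and H2-DMa (Cd74 from 3145 ± 4.26 to 68.2 ± 9.28, SD, n = 2). In rescue minus null 0 of 5 were called by limma (1 had an unadjusted p under 0.05). Over all clusters 6.84% were called lower in null minus wild type, and 15.4% were called in rescue minus null.

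Ctsb encodes cathepsin B, an abundant endopeptidase that also trims peptide ends. Its arrays gave 3863 and 3706 in the wild-type line, 3170 and 3535 in the null line, and 3444 and 3114 in the rescue line. Null and rescue overlapped and both lay below wild type. No comparison was called, with 95% intervals of -0.38 to 0.03 for null minus wild type, -0.24 to 0.18 for rescue minus null and -0.42 to 0.00 for rescue minus wild type. The last of these passed after quantile normalization (limma adjusted p = 0.0443).

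Ctsc encodes the dipeptidyl peptidase that activates granule serine proteases in immune cells. It was near the bottom of the range, between 21.3 and 34.1 on all 6 arrays, at percentiles 14.2 to 24.6 of all clusters. The table has no detection call, so whether such a level is above background is not known. No difference was called, and the 95% interval of null minus wild type, -0.62 to 0.27, is wide.

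Ctsa encodes cathepsin A, or protective protein, which holds β-galactosidase and neuraminidase in a stable complex. Intensities of 2852 and 2938 were measured in wild type, 1885 and 2212 in null, and 556 and 548 in rescue. The lines did not overlap and fell in the order wild type, null, rescue, with the null line at 70.8% and the rescue line at 19.1% of the wild-type mean. The rescue line was 26.9% of its null parent, a log2 difference of -1.86 ± 0.09 (limma adjusted p = 2.50e-04), which 0.484% of all clusters exceeded in size. Rescue minus wild type was -2.36 ± 0.09 (limma adjusted p = 4.78e-05). Null minus wild type was -0.50 ± 0.09 (limma adjusted p = 0.0158), a call that ended without either wild-type array (limma adjusted p = 0.0906 and 0.102) and without null replicate 1 (0.0595). Of the partner genes, Glb1, which encodes β-galactosidase, rose from 217 ± 5.41 in wild type to 293 ± 13.2 in null and 388 ± 29.8 in rescue (SD, n = 2; limma adjusted p = 0.0291 and then 0.0354). Both of these steps were lost in most fits without an array (called in 2 and 1 of 6, limma adjusted p up to 0.153 and 0.154), while rescue minus wild type, 0.79, was called in 6 of 6. Neu1, the neuraminidase gene, named for this partnership, was at 661 ± 27.4, 592 ± 64.4 and 767 ± 61.8 and was not called in any comparison.

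Ctsd encodes cathepsin D, the main lysosomal aspartic protease. Its arrays gave 7924 and 7414 in wild type, 5670 and 6598 in null, and 8294 and 6949 in rescue. The null arrays were the lowest, wild type and rescue overlapped, and the SD within the null (656) and rescue (951) lines was large beside the differences. Null minus wild type was -0.32 ± 0.12 (95% interval -0.61 to -0.04, limma adjusted p = 0.128) and rescue minus null 0.31 ± 0.12 (0.03 to 0.59, limma adjusted p = 0.137).

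Lgmn encodes legumain. It gave 1853 and 1712 in wild type, 1504 and 1530 in null, and 2149 and 1852 in rescue. The null arrays lay below the other 4, and rescue overlapped wild type, at 1852 against 1853. Rescue minus null was called at 0.39 ± 0.09 (limma adjusted p = 0.0375). That call ended after median centring (limma adjusted p = 0.0699), without the variance trend (0.0871), with only these lines in the fit (0.0722) and in 5 of 6 fits without an array (up to 0.147). Null minus wild type was -0.23 ± 0.09 (limma adjusted p = 0.163; 95% interval -0.45 to -0.01).

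Of the 10 genes, Gpnmb was the only one called higher in null than in wild type. It read 68.1 and 72.1 in wild type, 575 and 677 in null, and 76.8 and 85.2 in rescue. The null arrays stood far above the others, with a mean 8.93 times that of wild type, and rescue was slightly above wild type without overlap. Null minus wild type was 2.89 ± 0.11 (limma adjusted p = 5.70e-05). Rescue minus null was -2.72 ± 0.11 (limma adjusted p = 1.45e-04), a size that 0.167% of clusters exceeded. Rescue minus wild type was 0.17 ± 0.11 (limma adjusted p = 0.378; 95% interval -0.10 to 0.44). These comparisons share the null arrays. Gpnmb is used as a marker of melanocytes and macrophages, so markers of those cells were read on the same arrays. Of 12 other melanocyte markers, 0 were called by limma in any comparison (0, 0 and 1 had an unadjusted p under 0.05) and their summed intensity was 733 to 848 in wild type, 760 to 768 in null and 698 to 710 in rescue; Tyr stayed between 17.1 and 26.2, Pmel between 39.4 and 55.7 and Dct between 30.6 and 38.2. Of 17 immune markers, 1 fell and 0 rose in the null line (Cd14, by a log2 difference of -0.75), and the sums were 1537 to 1555 in wild type, 1189 to 1363 in null and 1435 to 1500 in rescue. Ptprc stayed between 20.6 and 27.5 and Csf1r between 47.2 and 52.9. No marker of either list was below 16 on all arrays. On at least 1 array, 3 of the 12 melanocyte and 5 of the 17 immune markers reached 100. The markers given by range above were not among them. Over all clusters, 15.3%, 15.4% and 15.4% were called in the 3 comparisons. Among the MiT/TFE genes, 2 of 8 were called in null minus wild type, both higher, a share of 25% against 15.3% of all clusters and 26.9% of those above the median cluster. Tfe3 rose from 317 ± 0.626 to 493 ± 10.7 and was at 409 ± 5.07 in rescue (SD, n = 2), and Flcn, a regulator of these factors, went from 430 ± 1.47 to 604 ± 9.20 and then 841 ± 58.9. The null minus wild type call of Flcn ended without any 1 of the wild-type or null arrays (limma adjusted p up to 0.0768). Mitf was dim and uncalled, between 35.2 and 56.2.

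**Figure D2:**
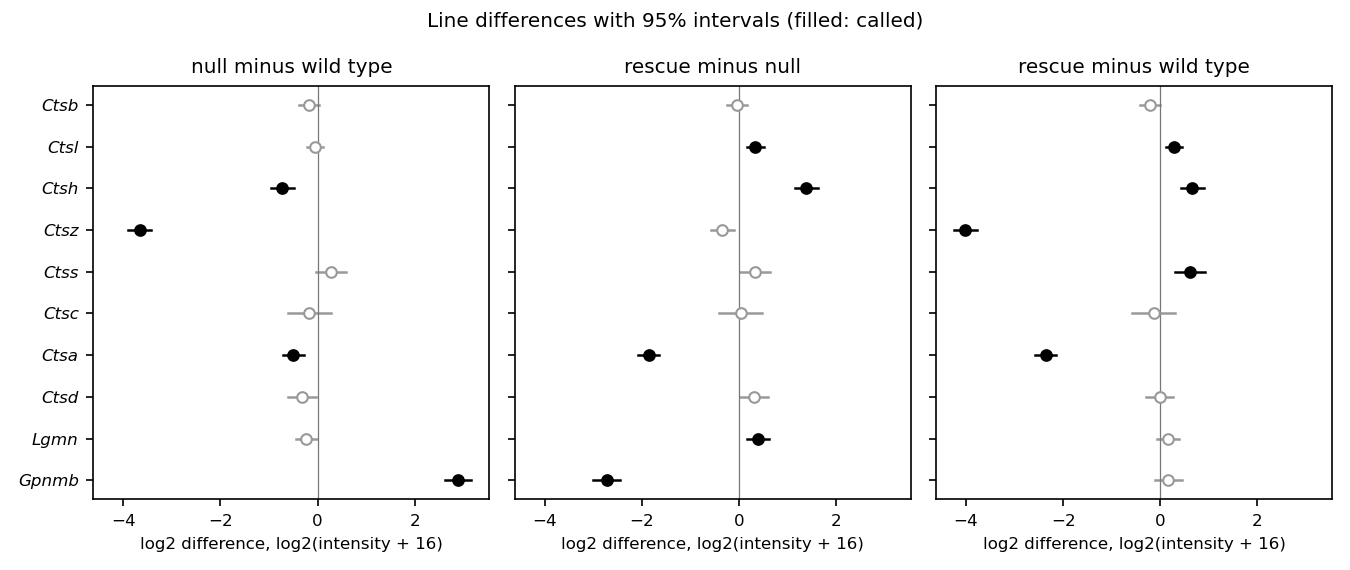
Log2 difference of each gene on the log2(intensity + 16) scale, with its 95% interval from limma, for the 3 comparisons; filled points were called. Ctsz in null minus wild type (-3.67) and Gpnmb (2.89) lie far from 0, Gpnmb (-2.72) and Ctsa (-1.86) fell in rescue minus null, and most other points lie within 1 of 0.

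Counted together, 4 of the 10 genes were called in null minus wild type (1 higher and 3 lower), where 15.3% of all clusters were called, 8.49% higher and 6.84% lower. In rescue minus null 5 were called (3 higher and 2 lower), against 15.4% of clusters, 9.75% higher and 5.62% lower. In rescue minus wild type 5 were called (3 higher and 2 lower), against 15.4%, 10.4% higher and 5.05% lower. Calls were more frequent among brighter clusters, at 26.9%, 26.6% and 25.3% of those above the median cluster, a group that holds 7 of the 10 genes and leaves out Ctsc, Ctss and Ctsz. With 10 genes, these shares describe a short list chosen with results known. Differences of at least 2-fold were called in 2, 3 and 2 genes, against 2.72%, 2.33% and 3.17% of all clusters. Lines did not overlap for 9, 8 and 7 of the genes, against 56.3%, 55.6% and 57.6%. The balance of rises and falls in rescue minus null rested in part on scaling: after median centring 1 gene was higher and 3 were lower, because Ctsl and Lgmn dropped out and Ctsz came in.

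The other cathepsins on the array were mostly dim. Of 6, Ctso fell in the null line from 332 ± 16.6 to 189 ± 32.3 (log2 difference -0.78, limma adjusted p = 0.0115) and was at 346 ± 19.5 in the rescue line (0.83 above null, limma adjusted p = 0.0104). Ctsw, known from cytotoxic lymphocytes, fell from 79.5 ± 3.51 to 33.1 ± 10.1 (limma adjusted p = 0.0338) and rose to 113 ± 32.3 (limma adjusted p = 0.0120). Ctse, Ctsf, Ctsg and Ctsk were not called and stayed between 22.3 and 60.2. The 9 placental cathepsins, relatives of Ctsl, had 0 calls by limma in each comparison (0, 2 and 2 had an unadjusted p under 0.05), and none reached 100 on any array. These calls were sensitive to single arrays. In null minus wild type Ctso lost its call without either wild-type array (limma adjusted p up to 0.0833), and Ctsw without any 1 of the wild-type or null arrays (up to 0.152). In rescue minus null both lost it without rescue replicate 1 (limma adjusted p = 0.0621 for Ctso), and Ctsw also without null replicate 1 (up to 0.0634).

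Of the inhibitors, 5 of 14 listed cystatins and stefins were measured. Cst3, which encodes the secreted cystatin C, fell in the null line from 6955 ± 547 to 5083 ± 371 (log2 difference -0.45, limma adjusted p = 0.0363) and rose to 7689 ± 772 in the rescue line (0.59, limma adjusted p = 0.0162). Cst6, which encodes cystatin E/M, an epidermal inhibitor of legumain and cathepsin L, rose from 43.5 ± 8.71 to 138 ± 17.2 (1.38, limma adjusted p = 0.00327) and was at 90.8 ± 9.27 in the rescue line, still above wild type (0.85, limma adjusted p = 0.0181). The rise of Cst6 in the null line was called in 6 of 6 fits without an array, and its rescue minus wild type difference in 3 of 6, being lost without wild-type replicate 1 or either rescue array (limma adjusted p up to 0.0911). The fall of Cst3 was lost without any 1 of the wild-type or null arrays (up to 0.197), and its rise without either null array or rescue replicate 1 (up to 0.0892). Cstb, the intracellular stefin B gene, was not called and lay between 2819 and 3654.

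The rest of the lysosome was counted from 5 lists with 97 measured of 111 listed genes. In the null line 21 were lower than wild type and 10 higher, in rescue minus null 6 were lower and 23 higher, and in rescue minus wild type 9 were lower and 21 higher. The share called was 32.0%, 29.9% and 30.9%, against 15.3%, 15.4% and 15.4% of all clusters and 26.9%, 26.6% and 25.3% of clusters above the median cluster. Hydrolases held most of these calls. Of 37, 13 were lower and 4 higher in the null line (median difference -0.19, against -0.01 over all clusters), and 13 were higher and 2 lower in rescue minus null (0.25 against 0.02); these comparisons share the null arrays. After median centring the splits were 13 lower and 7 higher, and 8 higher and 3 lower. Manba, which encodes β-mannosidase, went from 395 ± 18.5 in wild type to 134 ± 19.2 in null and 314 ± 10.7 in rescue (SD, n = 2; limma adjusted p = 7.35e-04 and then 0.00265). The β-glucuronidase gene Gusb went from 756 ± 41.5 to 395 ± 8.15 and 791 ± 58.5, and the hyaluronidase gene Hyal1 from 721 ± 22.1 to 408 ± 24.9 and 830 ± 9.94. Ppt2, a thioesterase gene, fell at each step like Ctsa, from 203 ± 7.96 to 76.4 ± 5.33 and 14.3 ± 8.56, although its first step was lost without any 1 of the wild-type or null arrays (limma adjusted p up to 0.0809). In rescue minus wild type 11 hydrolases were higher and 6 lower, but after quantile normalization 7 were higher and 10 lower, so that balance depends on scaling.

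Among 6 activators and cofactors, Gm2a, the GM2 activator gene, fell from 1121 ± 113 to 500 ± 39.0 and rose to 1109 ± 213 (limma adjusted p = 0.00558 and 0.00723, the second lost without null replicate 1 at 0.0503), while Psap, the saposin precursor gene, was called in no comparison. Among 23 membrane proteins 3 were higher and 3 lower in null than in wild type, and 6 rose and 1 fell in rescue minus null. These shares, 26.1% and 30.4%, compare with 15.3% and 15.4% of all clusters and 26.9% and 26.6% of those above the median cluster. Cln3, a lysosomal membrane protein gene, went from 658 ± 22.8 to 527 ± 0.313 and 837 ± 13.0, and Lamp1, a major membrane glycoprotein gene, fell in rescue minus null by a log2 difference of -0.32, a call lost in all 6 fits without an array (limma adjusted p up to 0.106). The null minus wild type call of Cln3 was lost in 4 of 6 such fits, without any 1 of the wild-type or null arrays (up to 0.167). Of 20 vacuolar ATPase genes, 2 were higher and 1 lower in null than in wild type. That share, 15%, lay near the 15.3% of all clusters and below the 26.9% of those above the median cluster. In rescue minus null 0 were called by limma (5 had an unadjusted p under 0.05), against up to 3 under other settings. Atp6v0a1, a membrane subunit gene, rose from 255 ± 4.30 to 525 ± 11.1 and stayed at 600 ± 61.0.

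Among 11 sorting genes, Igf2r, which encodes the large mannose 6-phosphate receptor, fell at each step, from 457 ± 15.0 in wild type to 235 ± 4.43 in null (log2 difference -0.91, limma adjusted p = 0.00240) and 118 ± 12.1 in rescue (-0.91, limma adjusted p = 0.00316). Gnptab, a subunit gene of the enzyme that makes the mannose 6-phosphate tag, rose from 615 ± 2.33 to 953 ± 26.6 and returned to 653 ± 17.2. Lrp1, an endocytic receptor gene, was highest in the rescue line, at 283 ± 19.1 against 107 ± 1.14 in null and 141 ± 4.54 in wild type; its rescue calls held in 6 of 6 fits without an array and its null minus wild type call in 0 (limma adjusted p up to 0.205). In this list 1 gene was higher and 3 were lower in the null line, and after median centring 3 were higher and 1 lower. Of 18 autophagy genes, 3 were lower and 1 higher in null than in wild type. The share called in that comparison was 36.4% for the sorting genes and 22.2% for the autophagy genes. Over all clusters it was 15.3%, and 26.9% of those above the median cluster. Atg9b rose in rescue minus null, from 596 ± 63.3 to 1355 ± 135 (limma adjusted p = 0.00267).

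**Figure D3:**
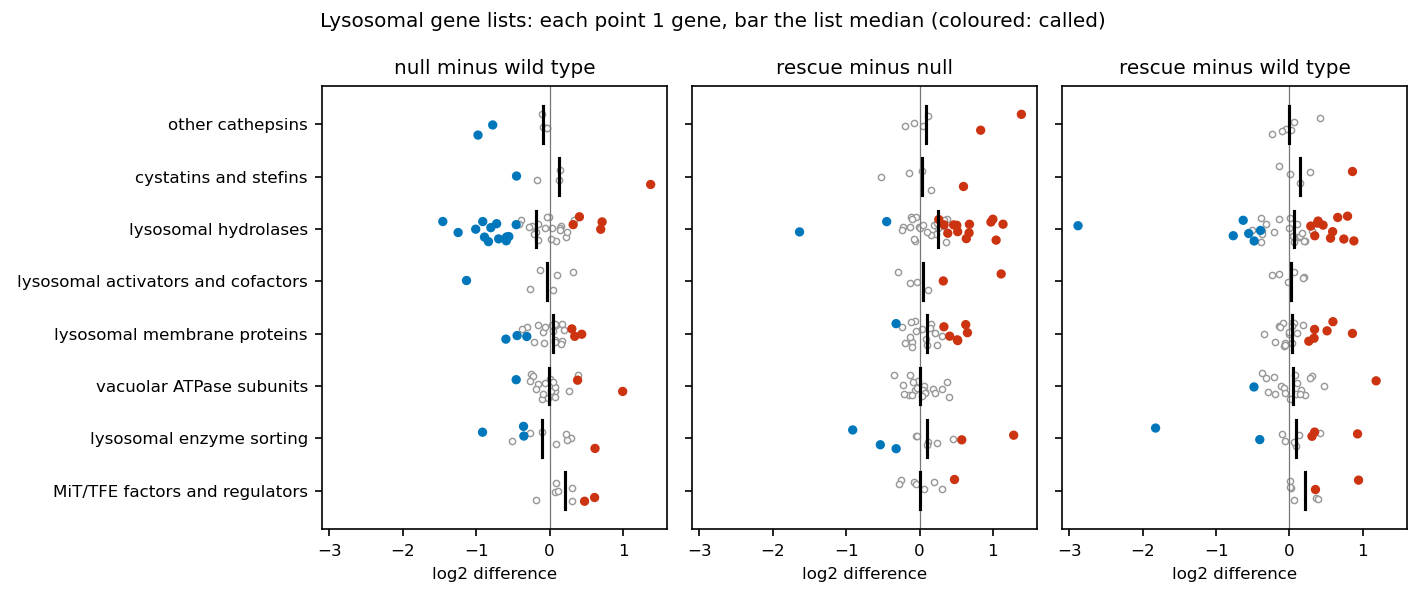
Log2 difference of every measured gene in the lists around the cathepsins, by comparison; coloured points were called higher (red) or lower (blue) and bars are list medians. The hydrolase median is -0.19 in null minus wild type and 0.25 in rescue minus null, and the vacuolar ATPase medians are -0.01 and 0.01, with 3 of 20 genes called in null minus wild type and Atp6v0a1 farthest from 0.

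The genes that lie next to each member were read as well, taking the 5 measured genes on each side in the order of the RefSeq table. Over all clusters, 6.84% were called lower and 8.49% higher in null minus wild type. In rescue minus null the shares were 5.62% and 9.75%, and in rescue minus wild type 5.05% and 10.4%. Among clusters above the median cluster, 26.9%, 26.6% and 25.3% were called in either direction. Beside Ctsa, on chromosome 2, 3 of 10 neighbours fell in null minus wild type (Acot8 by a log2 difference of -0.38, Pltp -0.76 and Mmp9 -0.78), and the falls of Pltp and Mmp9 were larger than the -0.50 of Ctsa. In rescue minus null 2 of 10 fell, Snx21 (-0.44) and Pltp (-0.40), beside -1.86 for Ctsa. In rescue minus wild type 4 of 10 fell (Snx21, Acot8, Zswim1 and Pltp, by log2 differences of -1.16 to -0.36), none by as much as the -2.36 of Ctsa. Beside Ctsl, 3 of 10 neighbours (Habp4, Prxl2c and Cdk20) rose in rescue minus wild type by 0.51 to 0.69, more than Ctsl itself. Beside Ctss, 3 of 10 (Setdb1, Arnt and Adamtsl4) rose in null minus wild type by 0.35 to 0.44. Ctss itself was uncalled there, at 0.28. Beside Ctsz, also on chromosome 2, 2 neighbours fell and 1 rose in the null line, where the largest fall was -0.84 (Atp5e). Npepl1, on the other side, rose by 2.39 and fell by -2.13 in rescue minus null. Ctsh, on chromosome 9, had 2 neighbours that fell in the null line, Tmed3 (-0.81) and Plscr2 (-2.16). In rescue minus null Plscr2 rose by 3.78 and Tmed3 fell again (-0.56), while Ctsh rose by 1.38. Near Gpnmb, on chromosome 6, Tmem176a and Tmem176b moved opposite to Gpnmb. They fell in the null line (-1.42 and -1.59) and rose in rescue minus null (2.34 and 2.34). Igf2bp3, the next gene in order, moved in the direction of Gpnmb in both comparisons. It rose by 0.59 in null minus wild type (limma adjusted p = 0.0219) and fell by -3.60 in rescue minus null. In rescue minus wild type, where Gpnmb was uncalled (0.17), 3 of 10 neighbours rose (Tmem176a, Tmem176b and Ccdc126, by 0.72 to 0.92). There 2 fell, with Igf2bp3 at -3.01. The genes beside Ctsz, Ctsh and Gpnmb were named after their values were seen.

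**Figure D4:**
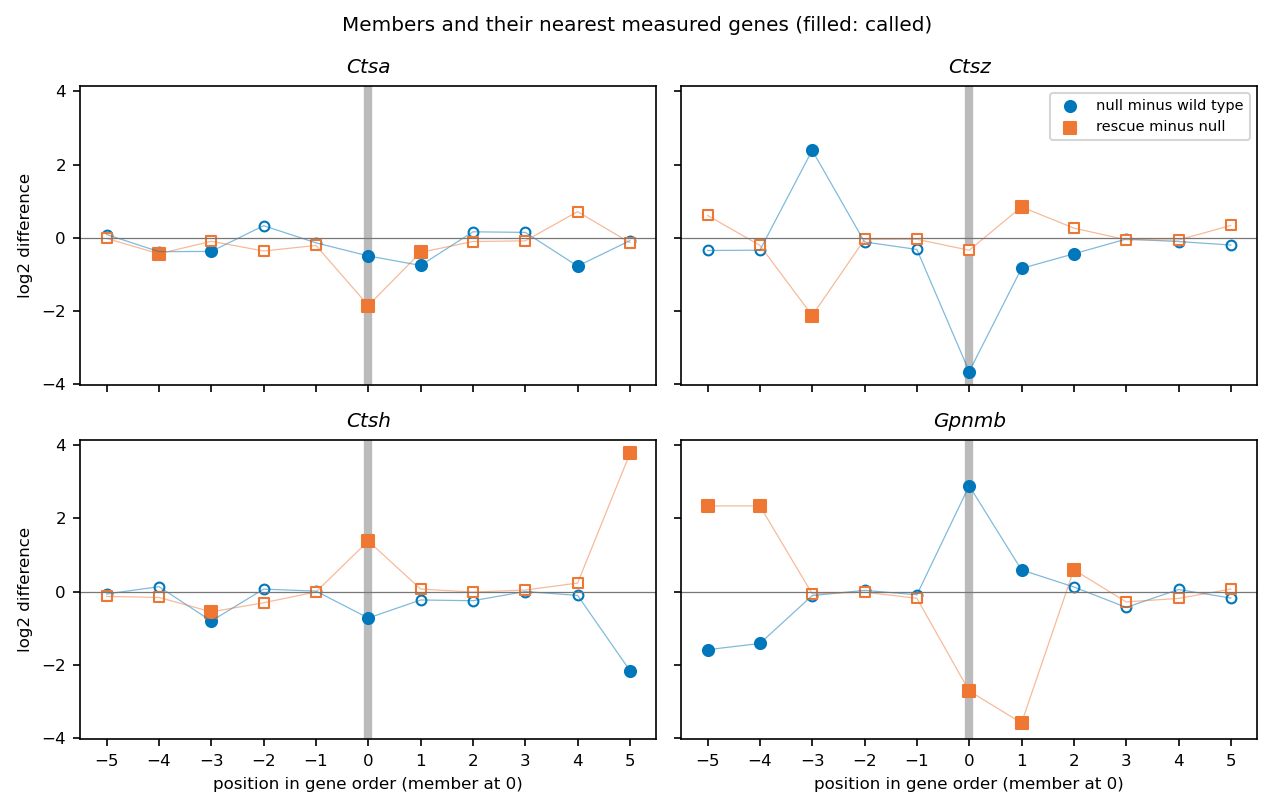
Log2 differences of Ctsa, Ctsz, Ctsh and Gpnmb (position 0) and of their 5 nearest measured genes on each side in gene order, for null minus wild type (circles) and rescue minus null (squares); filled symbols were called. The -3.67 of Ctsz and the -1.86 of Ctsa are the lowest values in their windows, and Npepl1, 3 places from Ctsz, moved the other way by 2.39 in null minus wild type.

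For the 4 genes with a difference of 1 or more, the most similar patterns were found by the distance between the pairs of log2 differences (null minus wild type and rescue minus null), among 8706 named clusters above the median. This likeness rests on 3 line means. Nearest to Gpnmb was Thbs2, which encodes a thrombospondin, at a distance of 0.02, from 76.1 in wild type to 677 in null and 88.2 in rescue. The metallothionein gene Mt4 and Npepl1 followed at 0.65 and 0.78. Nearest to Ctsz were Crct1 (0.15), Copz2 (0.27) and Gde1 (0.34). Nearest to Ctsh were the interleukin gene Il23a (0.09), Depdc7 (0.10) and Mboat2 (0.11). Nearest to Ctsa were Zfp358 (0.35), Jmjd8 (0.36) and Pgpep1 (0.43).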

How the data were processed

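The deposited table holds PLIER intensity values of a core-exon analysis, per the labels. The submitters' processing notes name Affymetrix Expression Console, and the series design names the Exon Array Computational Tool instead. The sources used here do not give background correction, normalization, versions or genome build. Intensities of 23332 clusters were analysed as log2(intensity + 16) without filter. A limma 3.58.1 model with a mean for each line covered the 6 arrays together (R 4.3.3, eBayes with trend; 3 residual and 3 prior degrees of freedom), two-sided, with Benjamini-Hochberg adjustment within each of 3 comparisons; the number of arrays limits precision. The fit was tested on simulated data. Symbols came from the platform annotation, 14996 clusters having 1 symbol, 1019 several and 7317 none, and 14941 matched the GRCm38.p6 gene table, which served for names and gene order. Where a symbol had several clusters, lists used the brightest. The members and 16 lists (252 entries, 214 measured) were chosen with earlier results of these data known. Named were the members, Itga3, up to 6 genes per list with the smallest adjusted p, the 3 nearest patterns, and neighbours where 3 or more moved with the member; other names are marked. Keratinocyte, immune, melanocyte, fibroblast and endothelial markers were among the lists. In null minus wild type 1 of 10 endothelial markers fell (Flt1) and 5 of 13 keratinocyte markers rose. In rescue minus null 7 of 13 keratinocyte markers fell. Over all clusters 6.84% fell and 8.49% rose in null minus wild type, and 5.62% fell in rescue minus null. Neu1, Psap, Cstb, Mitf and the markers were named for their roles. Alternatives were other pseudocounts, scalings, filters and variance models, fits restricted to a pair of lines, a replicate block, leaving out arrays, single-symbol clusters and a 2-fold rule.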

Additional observations from a re-analysis of the deposited data

How the results depend on the processing

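The calls of Ctsz and Gpnmb, that of Ctsa in both rescue comparisons, and that of Ctsh in rescue minus null held under every alternative in which they were tested; the filter at the median cluster left out Ctsz, Ctss and Ctsc. The number of the 10 genes called was 4 for null minus wild type, and 5 for either rescue comparison (against null, then against wild type). With a 2-fold rule it was 2, 3 and 2, by construction. It was 3 in rescue minus null without the variance trend, 3 in both rescue comparisons with only the lines compared, and 3 in rescue minus wild type with the filter at the median cluster, where fewer genes were tested. Without an array it was 2 to 4, 3 to 5 and 2 to 4; the lone array of a line was then assumed to vary like the others. With quantile normalization it was 4, 6 and 6. Ctsd passed in null minus wild type only once dimmer clusters were left out (limma adjusted p = 0.0482). Uncalled differences changed sign for Ctsl in null minus wild type (0.025 after median centring), Ctsc in rescue minus null (-0.0021 after quantile normalization and -0.084 after median centring; -0.18 to 0.25 without an array) and Ctsd in rescue minus wild type (0.0047 after quantile normalization; -0.14 to 0.11 without an array). Without an array, Ctsb in rescue minus null ranged from -0.11 to 0.047 and Ctsc in rescue minus wild type from -0.35 to 0.075. The cause of these changes was not tested. Over all clusters 3578, 3585 and 3599 were called, 2306, 2277 and 2406 without the trend, and 1088 at the fewest without an array. Higher calls in rescue minus null made up 63.4% of the calls, and 49.9% or 40.9% with quantile normalization or median centring. Of 864 list counts under alternatives, 648 stayed within 1.5 times and 216 did not, and without an array the hydrolases called fell to 5, 6 and 3 at the fewest.

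With replicate number as a block, 4, 4 and 4 of the genes were called; Ctsl was lost in both rescue comparisons (limma adjusted p = 0.0575 and 0.0871). The arrays share only a number: deviations of same-numbered arrays correlated at 0.03, 0.05 and -0.02, and no label ties them.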
